A study of Mus musculus with 8 samples.

Results

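Fatty acid uptake, fatty acid binding and glycerol export were examined in adipocytes through 7 genes: Lpl, Angptl4, Cd36, Slc27a1, Fabp4, Fabp5 and Aqp7. The genes were chosen by symbol for their roles, with earlier results of these data known, and the choice used no threshold on measured values. All 7 were found among the 18088 genes of the count table, and all 7 passed the filter on low counts that left 17972 genes for testing.

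The adipocytes were differentiated from 3T3-L1, a line of mouse preadipocytes that can be turned into fat cells in culture, so the data describe a single line. The cells were wildtype in both groups, were detached with Accutase, and were transfected in suspension with siRNA targeting ERK3 (siERK3, 4 libraries) or with a nontargeting siRNA (siNTC, 4 libraries), at 1.25 nM per square centimeter. They were used 48 h later, and the comparison asks how gene expression changes when ERK3, an atypical MAP kinase encoded by Mapk6, is depleted. Whether the libraries of a group came from separate cultures is not stated, so the p-values reflect only the spread from library to library, which may be technical.

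Adipocytes take up fatty acids that lipoprotein lipase (LPL) frees from circulating triglycerides, and ANGPTL4 is a secreted inhibitor of LPL. CD36 and FATP1 (encoded by Slc27a1) carry fatty acids across the plasma membrane, and the small binding proteins FABP4 and FABP5 hold them in the cytosol. Glycerol made when stored triglyceride is broken down leaves the cell through the channel AQP7. Several of these genes are targets of PPARG, the main adipogenic transcription factor, and Fabp4, Fabp5, Lpl and Cd36 are also used by macrophages.

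Unstranded libraries of poly(A) RNA were sequenced, and the totals ranged from 9854522 to 9943572 counts per library. Mapk6, the targeted gene, was at 74.8, 71.6, 68.5 and 63.5 CPM (counts scaled to the size and composition of a library) in the siERK3 libraries and at 587.6, 572.2, 557.8 and 599.3 CPM in the siNTC libraries, a log2 fold change of -3.06 ± 0.059 (SE, n = 4 each). The labelled cell type was checked by its markers. All 12 adipocyte markers were measured, and they summed to 9266 to 9785 CPM in siERK3 and 15763 to 17411 CPM in siNTC. Of these 12 markers, 11 were lower in siERK3 and 0 higher (median log2 fold change -0.77). All 20 genes of an interferon-stimulated list were higher in siERK3, summing to 6237 to 6475 CPM against 165 to 180 CPM in siNTC. The 9 preadipocyte and fibroblast markers measured summed to 2008 to 2118 CPM in siERK3 and to 2454 to 2760 CPM in siNTC, with 1 higher and 8 lower. Macrophage markers summed to 192 to 206 CPM in siERK3 and 19.5 to 24.4 CPM in siNTC over the 5 of 12 measured. Of these, 3 were higher (Mpeg1, Cd14 and Cd68), and Mpeg1 alone averaged 167 CPM in siERK3 and 0.76 CPM in siNTC. Cd14 averaged 14.3 CPM in siERK3 and 4.40 CPM in siNTC, and Cd68 averaged 1.74 and 0.83 CPM. Csf1r (6.75 CPM in siERK3 and 7.12 CPM in siNTC) and Trem2 (9.54 and 8.52 CPM) were not among these 3. The defining macrophage markers Adgre1, Ptprc, Itgam and Lyz2 were not among the 18088 genes, so no counts for them could be analysed. All 18088 genes were above 1 CPM in at least 4 libraries. Endothelial markers summed to 11.8 to 13.6 CPM in siERK3 and 9.57 to 11.6 CPM in siNTC over the 3 of 12 measured, with 1 higher. The adipocyte, preadipocyte and interferon-stimulated lists thus moved with siERK3. So did 3 of the 5 macrophage markers measured, with most of their summed CPM in Mpeg1. Their part in the results was not tested. In such bulk samples, fewer cells of a type and less RNA per cell cannot be told apart.

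The kinase siRNA library of the study lists 4 duplexes against Mapk6, shown here because a short match of a guide strand can lower other transcripts. The sources do not say whether the same pool was used for sequencing. The sense strands are written with bases 12 to 18, the complement of the seed of the guide strand, in capitals.
Mapk6 siRNA 1: ugacguaguugACAAGUUa
Mapk6 siRNA 2: gaaggaggauuCCGAAAUg
Mapk6 siRNA 3: gagcaugacugGCCUAUUc
Mapk6 siRNA 4: agagcgagguuAACCAUUa
Each of the 4 matched the coding part of Mapk6 on chromosome 9 in full. The longest match of any of them to a transcript of the 7 genes was 9 bases. The 7 capital bases of duplex 1 occurred in Lpl, those of duplex 4 in Cd36, and those of duplexes 2 and 3 in none of the 7. Among the transcripts of 17934 tested genes the same 7 bases occurred in 23.8%, 5.77%, 11.9% and 19.9% for duplexes 1 to 4, so such matches were common.

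All 7 genes passed the test between siERK3 and siNTC (edgeR quasi-likelihood test, Benjamini-Hochberg adjusted p under 0.05), with 4 lower and 3 higher. Among all genes tested 48.7% passed, with 24.9% higher and 23.8% lower, so a call by itself was common in these data. The median log2 fold change of the 7 genes was -0.67, beside 0.00 for all genes tested, and the median size of change over all genes was 0.25. The 8 libraries of 6 genes separated by group without overlap, and those of Cd36 did not, beside 43.2% of all genes tested that separated. Lpl, Slc27a1, Fabp4 and Aqp7 fell, and Angptl4, Cd36 and Fabp5 rose. The 7 genes together took 1.14 to 1.24% of all counts in siERK3 and 1.59 to 1.90% in siNTC.

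**Figure D1:**
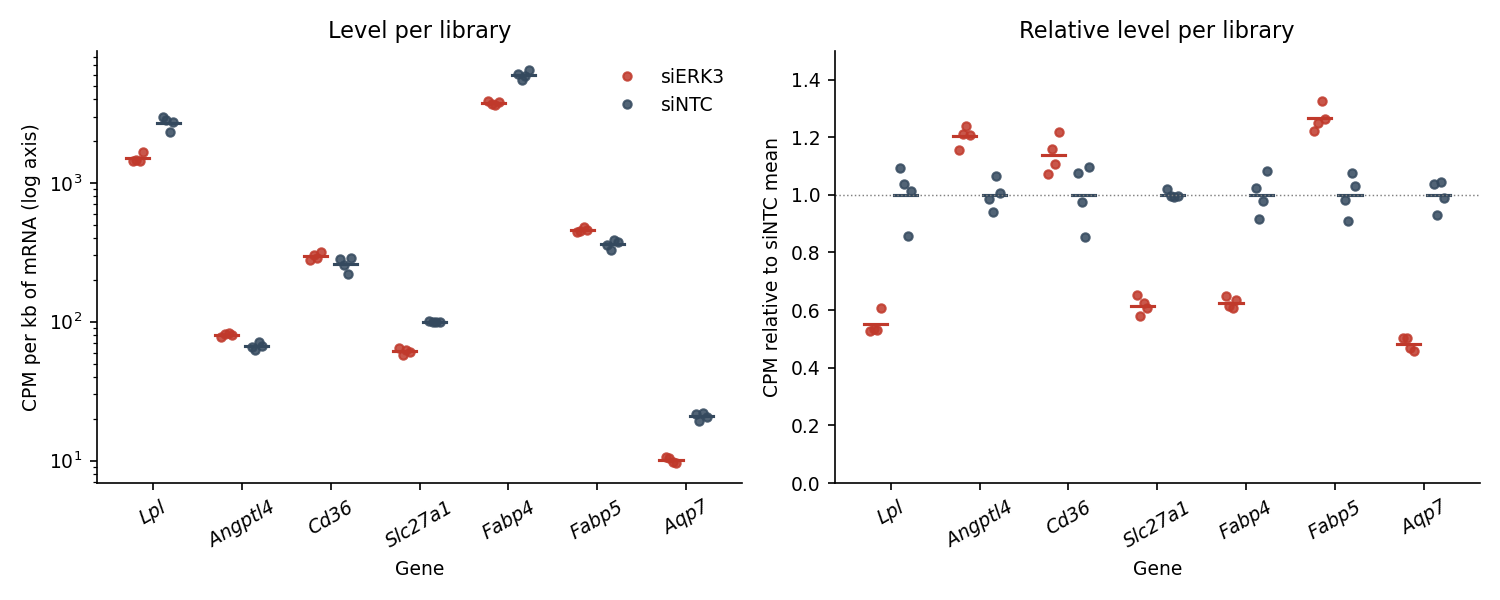
Level of the 7 genes in every library, as CPM per kb of mRNA on a log axis (left) and as CPM relative to the siNTC mean (right); points are libraries, and short lines are means of 4. The siERK3 points of Lpl, Slc27a1, Fabp4 and Aqp7 all lie below those of siNTC, those of Angptl4 and Fabp5 all lie above them, and those of Cd36 overlap.

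Lpl encodes the secreted lipase itself and lies on chromosome 8 of mm10 from 68880491 to 68907448, on the plus strand (ENSMUSG00000015568). Lpl was at 5893, 5989, 5939 and 6805 CPM in the siERK3 libraries and at 12206, 11605, 9562 and 11315 CPM in the siNTC libraries. Every siERK3 library was below every siNTC library, with siERK3 replicate 4 high in its group and siNTC replicate 3 low in its group. The log2 fold change was -0.86 ± 0.065 (SE, 95% interval -0.99 to -0.73, edgeR adjusted p = 1.28e-10), so Lpl stood at 55.1% of its siNTC level. The difference of the means was larger than the spread between replicates, which was 434 CPM in siERK3 and 1136 CPM in siNTC (SD). Lpl alone took 0.61 to 0.69% of all counts in siERK3 and 0.92 to 1.19% in siNTC. Per kb of mRNA it ranked 31 of 17934 genes in siERK3 and 23 of 17934 in siNTC, so it remained among the most abundant transcripts after the decrease.

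Angptl4 encodes the secreted inhibitor of LPL and lies on chromosome 17 from 33773750 to 33781830, on the minus strand (ENSMUSG00000002289). It was at 255.6, 268.5, 274.4 and 267.2 CPM in the siERK3 libraries and at 218.3, 208.6, 235.8 and 222.9 CPM in the siNTC libraries. The lowest siERK3 library, replicate 1, was still above the highest siNTC library, replicate 3. Angptl4 rose by 0.27 ± 0.052 on the log2 scale (SE, 95% interval 0.16 to 0.37, edgeR adjusted p = 0.000154). Lipase and inhibitor thus moved in opposite directions in siERK3.

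Cd36 encodes the scavenger receptor that serves as a fatty acid translocase and lies on chromosome 5 from 17781690 to 17888801, on the minus strand (ENSMUSG00000002944). Cd36 was at 950.6, 1027, 979.7 and 1079 CPM in the siERK3 libraries and at 953.2, 863.4, 755.4 and 969.4 CPM in the siNTC libraries. The groups overlapped, since siERK3 replicate 1 was below siNTC replicates 1 and 4, and siNTC replicate 3 was low. The log2 fold change was 0.19 ± 0.066 (SE, 95% interval 0.05 to 0.33, edgeR adjusted p = 0.0223), and the exact 2-sided permutation test of the 8 CPM values gave p = 0.0857. For each of the other 6 genes this exact permutation test gave p = 0.0286, the smallest that 4 against 4 libraries allow. The call of Cd36 was lost with upper-quartile scaling (0.12, edgeR adjusted p = 0.142) and without siERK3 replicate 2 (0.18, adjusted p = 0.0603), siERK3 replicate 4 (0.16, adjusted p = 0.0783) or siNTC replicate 3 (0.12, adjusted p = 0.0822). The calls of the other 6 genes held in all 19 alternative settings.

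Slc27a1 encodes the fatty acid transport protein FATP1, which also has acyl-CoA synthetase activity, and lies on chromosome 8 from 71568882 to 71587302, on the plus strand (ENSMUSG00000031808). Slc27a1 was at 181.2, 161.5, 173.7 and 169.3 CPM in the siERK3 libraries and at 283.6, 277.0, 276.0 and 276.9 CPM in the siNTC libraries. The groups were far apart, and the siNTC libraries varied little, with a coefficient of variation of 4.80% in siERK3 and 1.27% in siNTC. The log2 fold change was -0.70 ± 0.050 (SE, 95% interval -0.80 to -0.59, edgeR adjusted p = 5.45e-11). The 2 genes of membrane uptake therefore differed in direction, with Slc27a1 lower and Cd36 slightly higher, where Cd36 was called.

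Fabp4 encodes the adipocyte fatty acid binding protein (aP2) and lies on chromosome 3 from 10204088 to 10208576, on the minus strand (ENSMUSG00000062515). Fabp4 was at 3461, 3289, 3239 and 3393 CPM in the siERK3 libraries and at 5470, 4895, 5225 and 5774 CPM in the siNTC libraries. No siERK3 library came near the lowest siNTC library, replicate 2. The log2 fold change was -0.67 ± 0.054 (SE, 95% interval -0.79 to -0.56, edgeR adjusted p = 3.41e-10), so Fabp4 stood at 62.6% of its siNTC level. Per kb of mRNA Fabp4 was the most abundant of the 7 genes, at 3734 ± 112 CPM per kb in siERK3 and 5961 ± 416 CPM per kb in siNTC (SD, n = 4 each), and ranked 12 in siERK3 and 7 in siNTC among 17934 genes.

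Fabp5 encodes the epidermal fatty acid binding protein (mal1), which adipocytes also make, and lies on chromosome 3 from 10012548 to 10016607, on the plus strand (ENSMUSG00000027533). Fabp5 was at 437.0, 447.3, 474.4 and 451.5 CPM in the siERK3 libraries and at 351.8, 325.7, 384.7 and 368.6 CPM in the siNTC libraries. All siERK3 libraries were above all siNTC libraries, among which replicate 2 was lowest. Fabp5 rose by 0.34 ± 0.055 on the log2 scale (SE, 95% interval 0.23 to 0.45, edgeR adjusted p = 1.84e-05). The coding parts of Fabp4 and Fabp5 shared 61.9% of their bases and no run longer than 12 bases.

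Counts of Fabp5 could be split with near-identical copies, and the counting program was not given in the sources used here. Of 5 genes that held 50-base stretches of Fabp5, 4 were counted, all processed pseudogenes, which are intron-less copies of an mRNA elsewhere in the genome. Other genes also held such stretches of Lpl (350 genes, 150 counted), Slc27a1 (261, 181 counted) and Aqp7 (299, 205 counted). The most that a single gene held was 55 of 10329 stretches of Lpl (0.53%) and 31 of 2768 of Aqp7 (1.12%). For Fabp5 the most was 184 of 3611 stretches (5.10%), in Gm6166. No gene outside the 7 held any such stretch of Cd36, Fabp4 or Angptl4, and the 7 were not searched against each other. Whether the counts of Lpl, Slc27a1 and Aqp7 were affected was not tested. The first 150 bases of the coding part are shown for Fabp5 (GENCODE M21, mm10) and for the copies on chromosomes 9 and 2 (Gm6166 at chr9:57483963-57484371, plus strand, and Gm13998 at chr2:119878069-119878403, minus strand), with bases that differ from Fabp5 in capitals.
Fabp5: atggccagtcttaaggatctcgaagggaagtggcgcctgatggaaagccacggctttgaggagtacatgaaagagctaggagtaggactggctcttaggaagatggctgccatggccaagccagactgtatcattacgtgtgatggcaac
Gm6166: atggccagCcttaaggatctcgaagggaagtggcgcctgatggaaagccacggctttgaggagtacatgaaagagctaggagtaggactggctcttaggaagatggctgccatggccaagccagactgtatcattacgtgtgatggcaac
Gm13998: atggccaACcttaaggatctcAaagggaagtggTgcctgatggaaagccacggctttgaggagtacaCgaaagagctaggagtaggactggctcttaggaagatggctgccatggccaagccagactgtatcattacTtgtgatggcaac
Gm6166 differed from Fabp5 at 1 of these 150 bases and matched it at 98.8% of 405 coding bases, and Gm13998 differed at 6 of 150. Gm6166 averaged 315 ± 14.1 CPM in siERK3 and 251 ± 21.98 CPM in siNTC (SD, n = 4 each), and changed by 0.33 ± 0.060 on the log2 scale (SE, edgeR adjusted p = 7.27e-05). The copies Gm14328 and Fabp5l2 changed by 0.28 and 0.46 on the log2 scale (edgeR adjusted p of 0.00047 and 4.27e-05), and Gm13998, at 6.91 CPM in siERK3 and 7.51 CPM in siNTC, did not pass the test (-0.12, adjusted p = 0.539). Fabp5 with its 4 copies summed to 1004 ± 39.4 CPM in siERK3 and 802 ± 62.6 CPM in siNTC, and the share assigned to Fabp5 was 44.5 to 45.8% in siERK3 and 44.4 to 45.3% in siNTC. With the counts of all 5 summed, an alternative added after seeing the data, the log2 fold change was 0.33 (edgeR adjusted p = 5.30e-05). The direction of Fabp5 was the same with the copies included, while the Fabp5 count alone held 44.4 to 45.8% of the sum.

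**Figure D2:**
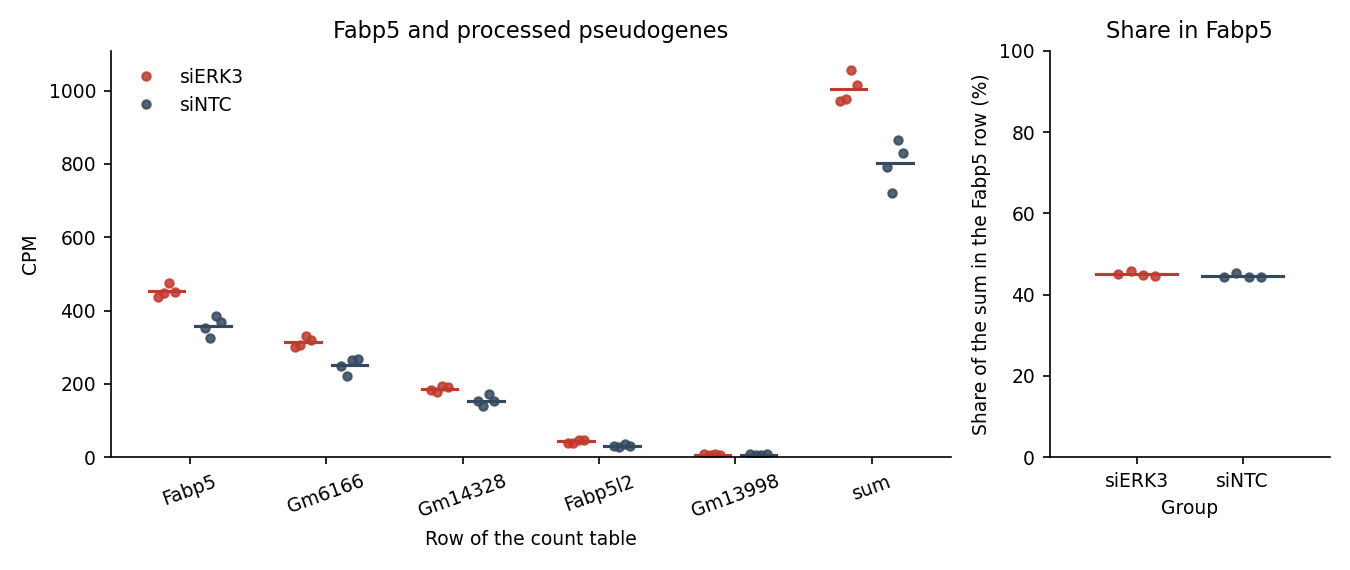
CPM of Fabp5, of its 4 counted processed pseudogenes and of their sum in every library (left), and the share of the sum that was counted for Fabp5, in percent (right); points are libraries, and short lines are means of 4. The sum lies between 970 and 1056 CPM in siERK3 and between 720 and 866 CPM in siNTC, while the share stays near 45% in both groups.

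Aqp7 encodes the aquaglyceroporin through which adipocytes release glycerol and lies on chromosome 4 from 41033074 to 41048139, on the minus strand (ENSMUSG00000028427). Aqp7 was at 26.7, 26.6, 24.8 and 24.1 CPM in the siERK3 libraries and at 54.9, 49.1, 55.2 and 52.2 CPM in the siNTC libraries. The groups lay far apart, with the highest siERK3 library at 26.7 CPM and the lowest siNTC library at 49.1 CPM. Its log2 fold change was -1.05 ± 0.065 (SE, 95% interval -1.18 to -0.91, edgeR adjusted p = 3.66e-12), the largest decrease among the 7 genes. Aqp7 was also the least abundant of them, with 244 to 276 counts per library in siERK3 and 475 to 529 in siNTC. Per kb of mRNA it was at 10.1 ± 0.50 CPM per kb in siERK3 and 20.9 ± 1.13 CPM per kb in siNTC (SD, n = 4 each).

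By CPM per kb, the order of the 7 genes from high to low was Fabp4, Lpl, Fabp5, Cd36, Angptl4, Slc27a1 and Aqp7 in siERK3, and Slc27a1 stood above Angptl4 in siNTC. Angptl4 was at 80.5 ± 2.38 CPM per kb in siERK3 and 66.9 ± 3.42 CPM per kb in siNTC, and Slc27a1 was at 61.3 ± 2.95 CPM per kb in siERK3 and 99.6 ± 1.26 CPM per kb in siNTC (SD, n = 4 each). Fabp5, counted without its copies, was at 459 ± 16.0 CPM per kb in siERK3 and 362 ± 25.5 CPM per kb in siNTC, above Cd36 at 297 ± 16.5 CPM per kb in siERK3 and 260 ± 28.9 CPM per kb in siNTC. The libraries of neighbouring genes in this order did not overlap in either group.

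Because members of one step moved in opposite directions, their balance within a library shifted more than either gene did. The ratio of Fabp4 to Fabp5, per kb of mRNA, was 8.72, 8.10, 7.52 and 8.28 in the siERK3 libraries and 17.1, 16.6, 14.96 and 17.3 in the siNTC libraries. With the pseudogene counts added to Fabp5, the ratio of Fabp4 to the sum, in CPM and not per length, was 3.34 ± 0.21 in siERK3 and 6.68 ± 0.43 in siNTC (SD, n = 4 each). Per kb, Fabp4 was above Fabp5 in all 8 libraries, by less in siERK3. The ratio of Lpl to its inhibitor Angptl4 was 18.5, 17.9, 17.4 and 20.5 in the siERK3 libraries and 44.9, 44.7, 32.6 and 40.8 in the siNTC libraries. The ratio of Cd36 to Slc27a1 was 4.31, 5.23, 4.64 and 5.24 in the siERK3 libraries and 2.76, 2.56, 2.25 and 2.88 in the siNTC libraries. None of these ratios overlapped between the groups. For Fabp4 to Fabp5 and for Lpl to Angptl4 this had to follow, since each gene separated by group and the directions were opposite. It therefore adds nothing to the results of the single genes. The ratios are given as descriptions, without a test.

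**Figure D3:**
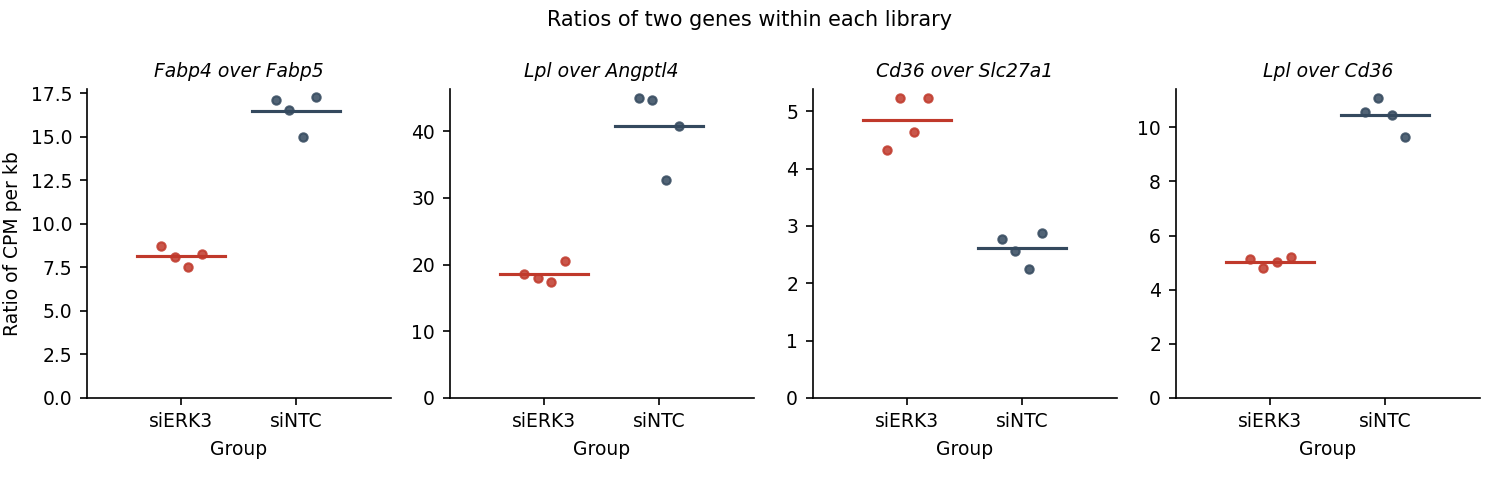
Ratios of CPM per kb of 2 genes within each library, for siERK3 (left in each panel) and siNTC (right); points are libraries, short lines are means of 4, and each axis starts at 0. The mean ratio of Fabp4 to Fabp5 is 8.16 in siERK3 and 16.5 in siNTC, that of Lpl to Angptl4 is 18.6 in siERK3 and 40.8 in siNTC, that of Cd36 to Slc27a1 is 4.86 in siERK3 and 2.61 in siNTC, and that of Lpl to Cd36 is 5.04 in siERK3 and 10.4 in siNTC.

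In each group, the library in which Lpl stood farthest from the group mean was also that in which Cd36 did. In siERK3 replicate 4, Lpl was 10.5% and Cd36 6.89% above the group mean, and in siNTC replicate 3, Lpl was 14.4% and Cd36 14.7% below it (deviations of -14.4% and -14.7%). In replicate 2 of both groups, Lpl and Cd36 lay on opposite sides of their means. Their ratio per kb varied less than either gene, with a coefficient of variation of 3.39% in siERK3 and 5.79% in siNTC, beside 7.05% in siERK3 and 10.2% in siNTC for Lpl. Fabp5 and Angptl4 were both highest in replicate 3 of each group, at 4.83% and 2.99% above the siERK3 mean and 7.55% and 6.50% above the siNTC mean. The genes whose log2 CPM followed each of the 7 most closely over the 8 libraries, among 11259 genes of at least 10 CPM, are given by Pearson's r, which takes in both the difference between the groups and the spread within them. For Lpl these were Prkar2b, a regulatory subunit of protein kinase A, and Pank3, a pantothenate kinase (r = 0.998 and 0.996). For Fabp5 they were Angptl4 and Rpn2 (0.993 and 0.992), and for Angptl4 they were Elovl1, a fatty acid elongase, and Fabp5 (both 0.993). Cd36, whose groups overlap, was followed by Stard4, a sterol carrier, and Pcna (0.981 and 0.969), whose own log2 fold changes were 0.08 and 0.07. Slc27a1 was followed by Cacng7 and Hipk2 (0.998 and 0.997), Fabp4 by Arxes1 and Mtch2 (0.998 and 0.996), and Aqp7 by Gm5869 (0.998).

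Promoter sequence from RefSeq (GRCm38.p6, 250 bases before to 50 bases after a transcription start) was matched for 3 of the 7 genes, Cd36, Slc27a1 and Aqp7, with 6 promoters in all. For each gene the promoter with the most motif matches is shown, because the genes of uptake and export changed in different directions, with matches to 3 searched motifs in capitals: AGGTCA (the hexamer repeated in elements that PPARG binds with RXR), CCAAT and GGGCGG, each on either strand.
Cd36 (chr5:17835847-17836146, minus strand): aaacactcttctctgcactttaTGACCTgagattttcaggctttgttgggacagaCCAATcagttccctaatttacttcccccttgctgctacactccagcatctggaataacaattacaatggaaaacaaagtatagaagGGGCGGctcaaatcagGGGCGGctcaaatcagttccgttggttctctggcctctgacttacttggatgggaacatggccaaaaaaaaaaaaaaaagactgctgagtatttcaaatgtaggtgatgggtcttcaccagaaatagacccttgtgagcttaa
Slc27a1 (chr8:71570344-71570643, plus strand): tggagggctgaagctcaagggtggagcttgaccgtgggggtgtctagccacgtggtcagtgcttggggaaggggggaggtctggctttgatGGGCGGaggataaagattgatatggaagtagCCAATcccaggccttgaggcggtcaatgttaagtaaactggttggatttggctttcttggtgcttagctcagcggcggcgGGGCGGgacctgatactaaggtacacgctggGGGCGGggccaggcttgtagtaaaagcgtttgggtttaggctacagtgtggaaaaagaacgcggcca
Aqp7 (chr4:41047913-41048212, minus strand): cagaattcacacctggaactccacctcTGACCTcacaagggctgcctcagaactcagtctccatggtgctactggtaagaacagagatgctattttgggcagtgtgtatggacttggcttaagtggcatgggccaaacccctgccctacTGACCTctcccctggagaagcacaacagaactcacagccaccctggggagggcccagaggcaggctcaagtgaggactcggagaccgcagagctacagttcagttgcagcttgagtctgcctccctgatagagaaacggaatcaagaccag
The Cd36 and Slc27a1 promoters shown lie wholly inside the gene spans given above, so they belong to internal starts. In the Aqp7 promoter shown, AGGTCA occurred on the opposite strand with its first base at -223 and at -101 relative to the start, and in the Cd36 promoter at -228. The Slc27a1 promoter shown held GGGCGG at -159, -48 and -17, and the Cd36 promoter at -109 and -93. CCAAT occurred at -128 in Slc27a1 and at -195 in Cd36. The promoters not shown held 1 match each: CCAAT at -188 and GGGCGG at -139 in the other Slc27a1 promoters, and AGGTCA at -49 in the other Aqp7 promoter. The other Aqp7 promoter overlaps the one shown, and its match at -49 is the same site as that listed at -223. Of 32851 promoters of this length, AGGTCA occurred in 16.3%, CCAAT in 37.4% and GGGCGG in 35.7%, so all 3 were common. The FOXO motif GTAAACA (in 3.65% of promoters), the TATA box TATAAA (13.6%), the interferon-stimulated response element (GAAA, any 2 bases and GAAA, 3.44%) and a CEBP motif (TTGC, any 2 bases and CAA, 2.08%) had 0 matches in the 6, also searched on both strands. A match is a description of letters and no evidence of binding.

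The genes that work with these 7 were taken as 7 lists of 86 symbols, of which 64 were measured and tested. Together 16 of the 64 were higher in siERK3, 27 were lower and 21 did not pass the test. Among all genes tested 24.9% were higher and 23.8% lower, the shares to set beside this count and those of each list below. The medians of the lists lay between -0.43 and -0.06, beside 0.00 for all genes and -0.67 for the 7 genes.

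**Figure D4:**
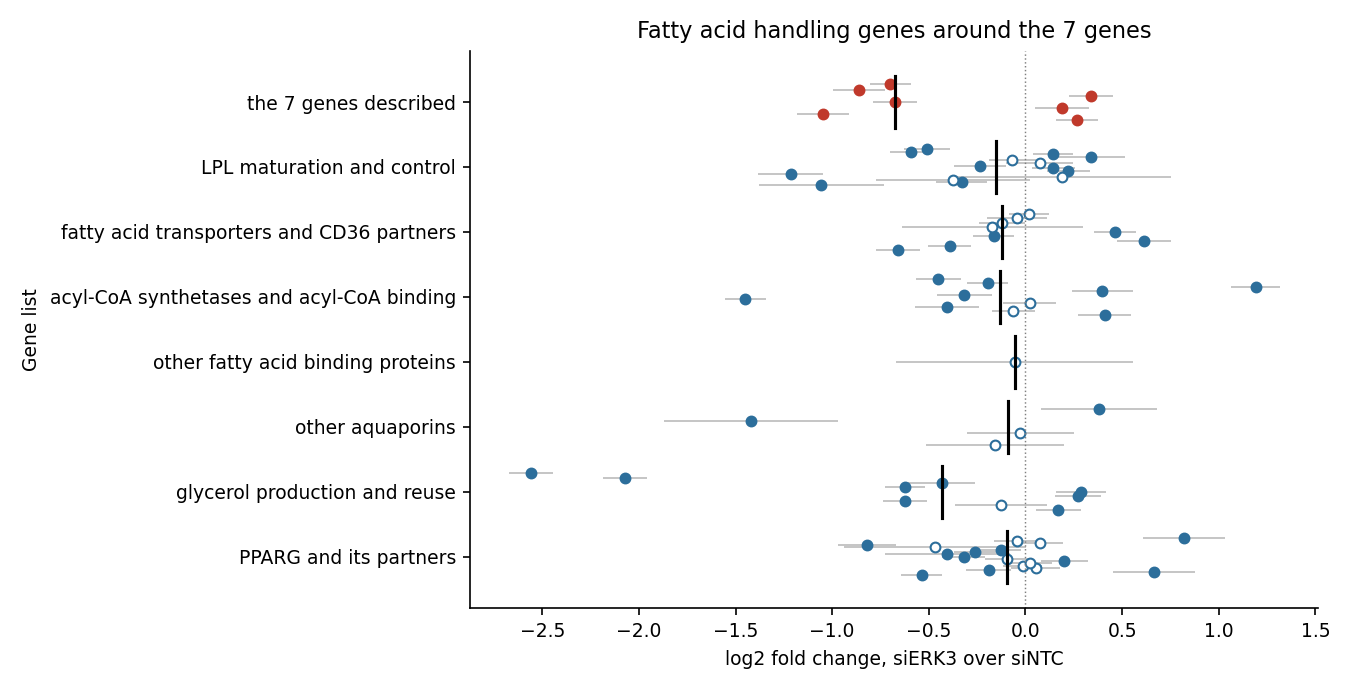
Log2 fold change of siERK3 over siNTC for the 7 genes and for each tested gene of the 7 lists; grey bars are 95% intervals, filled points passed the test, open points did not, and black lines are list medians. The medians of the 7 lists lie closer to 0 than that of the 7 genes, and each list with more than 1 tested gene has genes on both sides of 0.

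Among genes of LPL maturation and control, 4 of 14 tested were higher in siERK3 and 6 were lower, with a median log2 fold change of -0.15. Sort1 (sortilin, a sorting receptor) averaged 409 ± 13.7 CPM in siERK3 and 617 ± 33.8 CPM in siNTC, a log2 fold change of -0.59 ± 0.052 (SE, n = 4 each). Vldlr, a lipoprotein receptor, fell by 0.51 (177 CPM in siERK3 and 251 CPM in siNTC), and Apoc1, an apolipoprotein that inhibits LPL, fell by 0.33. Furin, a protease that can cleave LPL, rose by 0.22 (75.1 CPM in siERK3 and 64.4 CPM in siNTC). Sel1l, a factor of LPL folding in the endoplasmic reticulum, rose by 0.14. The call of Sel1l was lost with upper-quartile scaling (0.07), where 2 genes of the list were higher. Without siERK3 replicate 3, siNTC replicate 1 or siNTC replicate 4 this call was also lost and the count was 2. The log2 fold change of Sel1l over single omitted libraries ranged from 0.12 to 0.17. Lrp1 and Lmf2 did not pass the test (-0.07 and 0.07). Angptl8, a secreted regulator of LPL named after its values were seen, was at 4.26 CPM in siERK3 and 8.87 CPM in siNTC, a log2 fold change of -1.06 (adjusted p = 5.76e-06).

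Among other fatty acid transporters and partners of CD36, 2 of 9 tested were higher and 3 were lower, with a median of -0.12. Cav1 and Cavin1, which form the caveolae that hold CD36 at the adipocyte surface, fell by 0.66 and 0.39 on the log2 scale. Cav1 averaged 1566 ± 68.2 CPM in siERK3 and 2473 ± 154 CPM in siNTC (SD, n = 4 each). Scarb1, the HDL receptor and a relative of CD36, fell by 0.16, and its call was lost with library sizes alone (-0.08). Got2, a mitochondrial aminotransferase also described as the plasma membrane fatty acid binding protein, rose by 0.61 (57.0 CPM in siERK3 and 37.3 CPM in siNTC), and Scarb2, a lysosomal relative of CD36, rose by 0.46. Slc27a4 (FATP4) did not pass the test (-0.12, adjusted p = 0.088) and passed it with upper-quartile scaling (-0.19) and without siERK3 replicate 2 (-0.15). Zdhhc5, which palmitoylates CD36, did not pass the test (0.02).

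Among acyl-CoA synthetases and acyl-CoA binding proteins, which trap fatty acids that have entered the cell, 3 of 10 tested were higher and 5 were lower, with a median of -0.13. Acsl1, the main long-chain acyl-CoA synthetase of adipocytes, averaged 1792 ± 11.9 CPM in siERK3 and 4898 ± 260 CPM in siNTC, a log2 fold change of -1.45 ± 0.051 (SE, n = 4 each, edgeR adjusted p = 5.25e-17). Acsl5 went the other way, at 66.1 ± 1.67 CPM in siERK3 and 28.9 ± 1.78 CPM in siNTC, with a log2 fold change of 1.19 ± 0.060. Acsl4 rose by 0.40 and Acbd3 by 0.41, while Dbi, the acyl-CoA binding protein, fell by 0.45 and Acss2 by 0.20. The call of Acss2 was lost with library sizes alone (-0.11). Acbd4 and Acbd6 did not pass the test (-0.06 and 0.02), and Acbd4 passed it with upper-quartile scaling (-0.13).

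Genes that make or reuse glycerol stand on both sides of AQP7, and 3 of 9 were higher and 5 lower, with a median of -0.43. Pnpla2 (ATGL) and Lipe (HSL), which start the breakdown of triglyceride, fell by 2.56 and 0.62 on the log2 scale. Gpd1, which makes glycerol 3-phosphate from a glycolytic intermediate, averaged 2230 ± 50.7 CPM in siERK3 and 3432 ± 253 CPM in siNTC and also fell by 0.62. Pck1, the enzyme of glyceroneogenesis and named after its values were seen, was at 72.8 CPM in siERK3 and 306 CPM in siNTC, a log2 fold change of -2.07 (adjusted p = 1.46e-19). Gpd2, Gpd1l and Abhd5, the coactivator of ATGL, rose by 0.29, 0.27 and 0.17. The call of Abhd5 was lost with upper-quartile scaling (0.10) and without siNTC replicate 2 (0.11). Glycerol kinase (Gk) did not pass the test at 10.2 ± 0.72 CPM in siERK3 and 11.2 ± 1.65 CPM in siNTC (-0.13, adjusted p = 0.376).

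Close relatives of the binding proteins and of AQP7 were low. Of 8 other fatty acid binding proteins Fabp12 was tested, at 1.05 CPM in siERK3 and 1.10 CPM in siNTC, and it did not pass the test (-0.06, adjusted p = 0.899). Of 10 other aquaporins 4 were tested, all under 10 CPM in both groups. Aqp2 was at 1.25 ± 0.12 CPM in siERK3 and 3.36 ± 0.55 CPM in siNTC, a log2 fold change of -1.42 ± 0.22 (SE, n = 4 each, edgeR adjusted p = 8.76e-06). Aqp5 passed the test narrowly (0.38, adjusted p = 0.0332), and its call was lost with DESeq2 (0.38), with upper-quartile scaling (0.31) and without any 1 of siERK3 replicates 1, 2 and 3 and siNTC replicates 1, 2 and 3, where the values ranged from 0.31 to 0.38. Aqp1 and Aqp11 did not pass the test (-0.16 and -0.03).

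Of PPARG and its partners, which act on promoters of several of the 7 genes, 3 of 17 were higher and 7 were lower, with a median of -0.10. With library sizes alone, 4 were lower. Pparg itself averaged 535 ± 14.7 CPM in siERK3 and 584 ± 20.4 CPM in siNTC, a log2 fold change of -0.13 ± 0.050 (SE, n = 4 each, edgeR adjusted p = 0.0385). Its call was lost with library sizes alone (-0.04), with the exact and likelihood-ratio tests of edgeR (both -0.13), and without siERK3 replicate 1, 3 or 4 or siNTC replicate 1 or 4 (-0.12 to -0.11). Cebpa, its partner in adipogenesis, fell by 0.54 (378 CPM in siERK3 and 549 CPM in siNTC), and Ppard fell by 0.26. Cebpb rose by 0.66, with a spread of 36.1 CPM (SD) around a mean of 147 CPM in siERK3 and of 2.09 CPM around 92.7 CPM in siNTC. Rxrg rose by 0.82 and the corepressor Ncor1 by 0.20, whose call was lost with upper-quartile scaling (0.13). Rxra did not pass the test (0.07) and passed it with library sizes alone (0.16) and without siNTC replicate 3 (0.13), and Ncoa1 did not pass it (-0.01).

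The scale of the libraries mattered little for 6 of the 7 genes. The median over all genes tested was -0.07 with upper-quartile scaling and 0.09 with library sizes alone, and the values of the 7 genes moved with it. The order of the fold changes, with Aqp7 lowest, then Lpl, Slc27a1 and Fabp4, and with Cd36, Angptl4 and Fabp5 above 0, was kept under all 5 scalings. A scaling shifts all genes by nearly the same amount, so this order could hardly change and was not tested by it. The intervals of Slc27a1 and Fabp4 overlapped under each scaling, and so did those of Cd36 and Angptl4. With TMM the interval of Lpl (-0.99 to -0.73) also overlapped those of Aqp7 (-1.18 to -0.91) and Slc27a1 (-0.80 to -0.59). That of Angptl4 (0.16 to 0.37) overlapped that of Fabp5 (0.23 to 0.45). Neighbours of the same direction in this order were therefore not separated by their intervals.

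**Figure D5:**
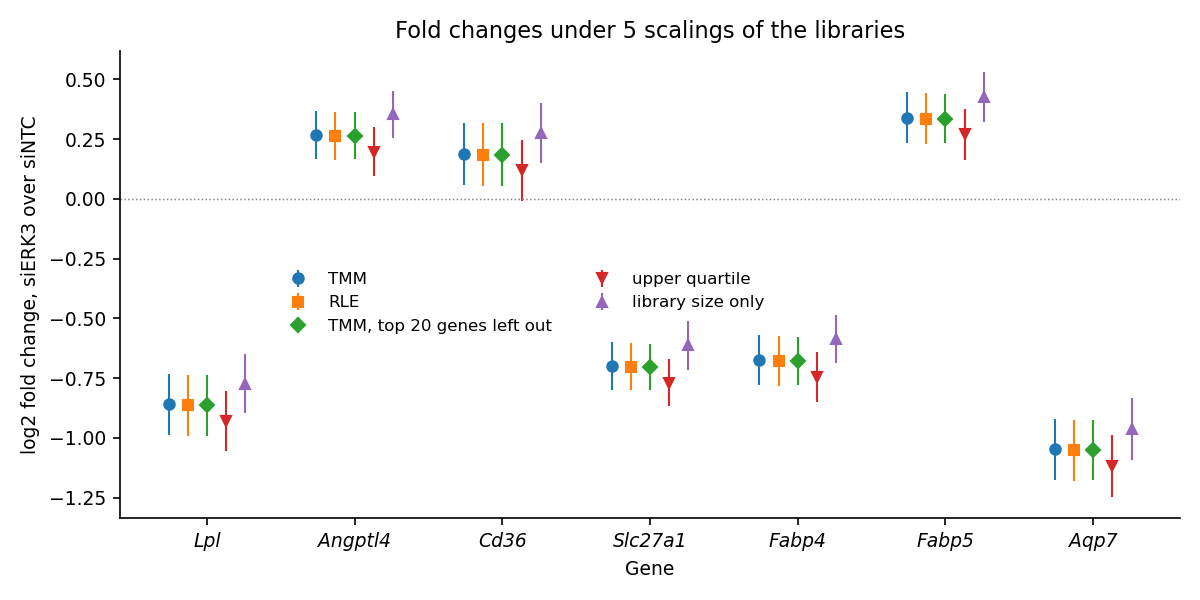
Log2 fold change of siERK3 over siNTC for the 7 genes under 5 scalings of the libraries. The scalings are TMM, RLE, TMM without the 20 most abundant genes, upper quartile, and library size only. Bars are approximate 95% intervals from the SE and the normal distribution, slightly narrower than the intervals in the text. The 4 lower genes stay below 0 and Angptl4 and Fabp5 above 0 with all 5, and the interval of Cd36 reaches 0 with upper-quartile scaling.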

How the data were processed

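RNA was sequenced from 4 siERK3 and 4 siNTC libraries. The authors deposited raw counts per gene, each above 1 CPM in at least 4 libraries, and a table of their own comparison (fold changes, average log2 CPM and p-values), which was not used. The submitters' processing notes name bcl2fastq, FastQC, Bowtie2, edgeR and mm10. The counting program, annotation and strand setting are not given in the sources used here.

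Testing used the quasi-likelihood method of edgeR 4.0.16 (R 4.3.3) on TMM-scaled counts without covariates, with genes filtered by filterByExpr (count of 10, total count of 15) and Benjamini-Hochberg adjustment over 17972 genes. The SE is the absolute log2 fold change over the square root of F, and 95% intervals use the t distribution with the degrees of freedom of the fit. CPM values use TMM-scaled library sizes. Lengths for CPM per kb are those of the longest protein-coding transcript in GENCODE M21, in which 18050 of 18088 gene IDs were found, and coordinates are from it. Python 3.11.15, scipy 1.17.1 and Biopython 1.88 were used for the remaining steps. The siRNA sequences are those of the study's kinase library.

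Every one of the 7 genes was named, with up to 3 called genes per direction and up to 2 uncalled genes of each list by mean CPM, and the 2 genes whose log2 CPM correlated best with each of the 7. Some genes that this rule names are not reported here. The genes and lists were chosen with earlier results of these data known. Alternatives were DESeq2 1.42.0, limma-voom (limma 3.58.1), the exact and likelihood-ratio tests of edgeR, 4 other scalings, an unfiltered table, 5 CPM required in 4 libraries, the replicate number as a block, and leaving out each library. The fits were tested on simulated data. Libraries of a group differed by more than sampling noise in all 12 pairs (chi-square per gene of 1.97 to 8.30). Since the reads carry no molecular identifiers, counting error is a lower limit.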

Additional observations from a re-analysis of the deposited data

Results flagged for a closer look

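In 110 groups of 4 values (the 7 genes, Mapk6, the 43 genes named from the lists and 4 ratios of the 7 genes, each in both groups), 5 had a library far from the other 3, and chance at 1 in 20 gives 5.5. Among the 7 genes, Lpl in siERK3 replicate 4 was at 6805 CPM, apart from 5893 to 5989 CPM in the other siERK3 libraries, and Slc27a1 in siNTC replicate 1 was at 283.6 CPM, apart from 276.0 to 277.0 CPM. Without siERK3 replicate 4 the log2 fold change of Lpl was -0.91, beside -0.86 with it, and that of Slc27a1 without siNTC replicate 1 was -0.69, beside -0.70 with it. Among the list genes, Acbd4 in siNTC replicate 2 was at 93.89 CPM (99.9 to 101.0 CPM in the others), Abhd5 in siNTC replicate 2 was at 162.1 CPM (190.1 to 193.1 CPM), and Rxra in siNTC replicate 3 was at 214 CPM (182.7 to 183.6 CPM). The calls of Abhd5 and Rxra depended on these libraries: without them the log2 fold changes were 0.11 and 0.13.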

How the results depend on the processing

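Lpl, Slc27a1, Fabp4, Fabp5, Angptl4, Aqp7 and Mapk6 kept their direction and call in all alternatives. Without single libraries the log2 fold changes ranged from -0.93 to -0.81 for Lpl, -0.72 to -0.67 for Slc27a1, -0.71 to -0.64 for Fabp4, 0.30 to 0.38 for Fabp5, 0.24 to 0.30 for Angptl4 and -1.08 to -1.02 for Aqp7. Cd36 was no longer called with upper-quartile factors (0.12) and without siERK3 replicate 2 or 4 or siNTC replicate 3, with a range of 0.12 to 0.23 over single libraries. The cause was not tested. The labels do not say whether the replicate numbers pair the libraries. Correlations of same-numbered deviations ran from -0.02 to 0.24, and 3 of 8 libraries correlated best with their own number, which cannot exclude a pairing. With the replicate number as a block, 4501 genes were higher and 4292 lower, beside 4470 and 4275 without it, and Cd36 was at 0.19 (adjusted p = 0.00768). Library sizes alone gave 5849 higher and 3139 lower, and upper-quartile factors 3556 and 5394. Among the lists, LPL maturation had 2 higher genes with upper-quartile factors and 2 to 4 without single libraries. Other aquaporins had 0 higher with DESeq2 or upper-quartile factors, 0 to 1 without single libraries, and 0 lower with the filter of 5 CPM, which removed Aqp2. PPARG and its partners had 4 lower with library sizes only. Of 43 named list genes, 17 changed call at least once and 7, all uncalled, changed sign. With library sizes only these were Lrp1 (0.0195), Acbd4 (0.0240), Fabp12 (0.0293), Aqp11 (0.0596) and Ncoa1 (0.0717), and with upper-quartile factors Zdhhc5 (-0.0526) and Acbd6 (-0.0492). Without single libraries Zdhhc5 ranged from -0.00383 to 0.0303, Acbd6 from -0.0161 to 0.0634, Fabp12 from -0.166 to 0.116, Aqp11 from -0.0961 to 0.0326 and Ncoa1 from -0.0296 to 0.00194. Depth limits the genes under 10 CPM most, with an SE of 0.30 for Fabp12 and 0.22 for Aqp2 beside 0.065 for Aqp7.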
